A study of Glycine max with 9 samples.

Results

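A set of 42 soybean genes had lower transcript levels in the leaf after 1 h and after 24 h at 4 °C than before the cold, in each of 3 replicates. They were chosen from 49777 genes by their measured values. On the scale of log2(normalized count + 1), a member was at least 0.58 below the 0 h library of the same replicate number in all 6 cold libraries, and its mean at 0 h was at least 100 normalized counts. A difference of -0.58 is a level 33.1% lower. The mean minimum left 28495 genes from which the members could come, and the same rule with the signs turned found 49 genes raised at both times.

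All 9 libraries came from unifoliate leaves (the first pair of true leaves) of Glycine max, cultivar Williams82, at an age of 2 weeks. The growth chamber was kept at 20 °C, with days of 18 h and nights of 6 h. The 0 h group was harvested before chilling, the 1 h and 24 h groups after that time at 4 °C starting 4 h after lights on, and each group had 3 libraries of at least 6 plants. The 1 h leaves were thus harvested an hour later in the day than the 0 h leaves and the 24 h leaves were a day older, and no unchilled leaves of those times were analysed here. Cold and time of day cannot be told apart at 1 h against 0 h, nor cold and a day of age at 24 h against 0 h. Between the cold times, time in the cold, time of day and age all differ and cannot be told apart. The identifiers of the members could not be matched to any gene name in the tables used here, and 0 of 42 matched. No function is therefore given to any of them, and the leaf identity of the samples was not checked against marker genes.

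As background, a transcript level reflects both synthesis and decay, and low temperature slows many enzymatic steps of both. Plants lower many transcripts in the cold as well as raising others, and a transcript that stays low over a day differs in time course from one that dips and recovers. Leaf transcripts also follow the circadian clock, so the hour of harvest bears on their level. In RNA from whole leaves, fewer cells of a type and less RNA per cell cannot be told apart.

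The libraries held 70979478 to 81875659 normalized counts, and spacing between the low values put their depth at about 18000000 to 67800000 reads. One read was worth about 1.17 to 4.15 normalized counts. Libraries with replicate number 3 stood apart. Before the cold, replicate 3 was over 2-fold away from the average of the other 2 in 41.5% of the 28495 genes, while replicates 1 and 2 were that far apart in 5.2%. Nothing in the labels says what a replicate number shares, nor that the replicates came from separate growths, so spread between them may be partly technical.

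Together the 42 genes made up 0.0415%, 0.0492% and 0.0410% of the library total before the cold (replicates 1, 2 and 3, the order used for all triplets of values). Their share was 0.0185%, 0.0246% and 0.0188% after 1 h and 0.0184%, 0.0179% and 0.0200% after 24 h. All 6 cold libraries lay below the 3 libraries at 0 h, which the choice of the genes fixes. The median member was 2.27-fold lower at 1 h and 2.19-fold lower at 24 h than at 0 h. Over all 28495 genes the median log2 difference from 0 h was -0.03 at both times. Since these differences chose the members, they are given as a description, without a test.

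Most members were lowered moderately and a few strongly. The mean difference was at least 2-fold at 1 h in 28 members and at 24 h in 30, and it was that large at both times in 24. It reached 4-fold in 5 members at 1 h, in 6 at 24 h and in 3 at both times. The mean log2 difference ranged from -3.00 to -0.69 at 1 h and from -3.62 to -0.70 at 24 h. Within a member, the 6 differences spanned 0.20 to 2.79 log2 units, with a median span of 0.94. In 10 members every one of the 6 differences was at least 2-fold.

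**Figure D1:**
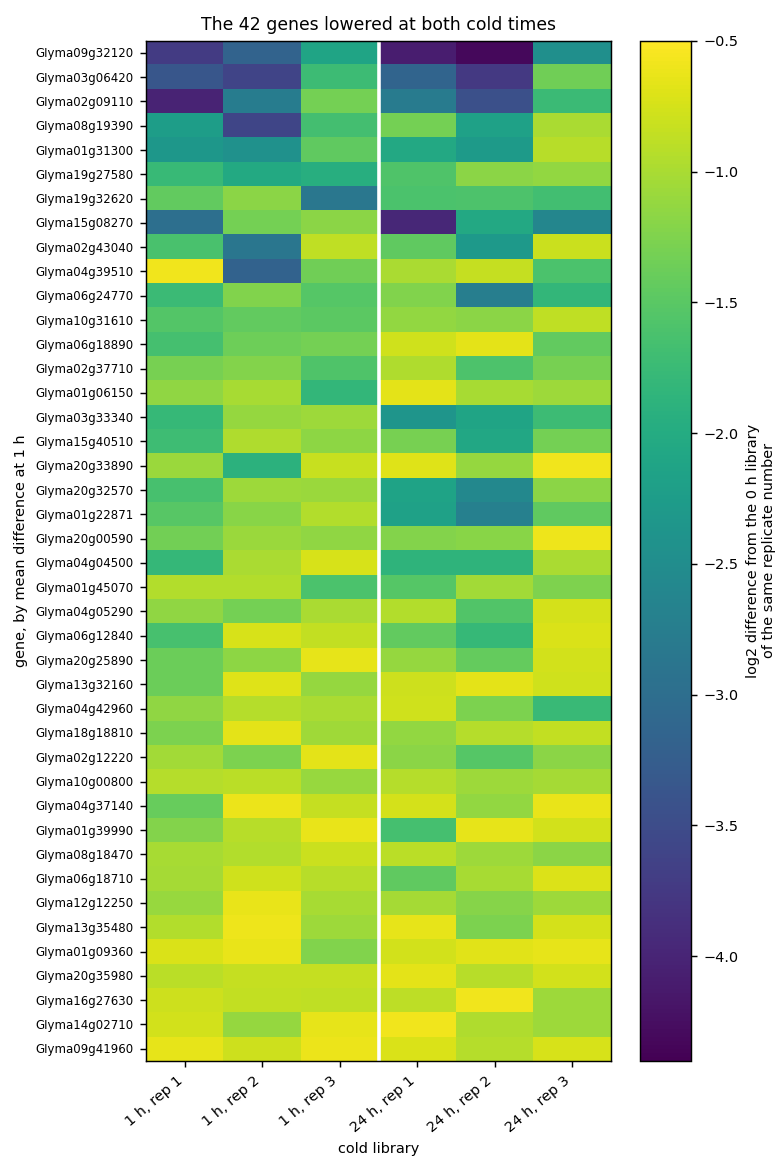
Log2 difference of each cold library from the 0 h library of the same replicate number, for all 42 members (rows, ordered by their mean difference at 1 h) in the 3 libraries at 1 h (left) and the 3 at 24 h (right). Darker cells are lower, and the darkest rows are Glyma09g32120, Glyma03g06420 and Glyma02g09110 at the top.

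Without a term for the replicate number, limma called 0 of the 42 members at an adjusted p under 0.05 at 1 h, where it called 0% of the 38985 genes tested as lower. At 24 h it likewise called 0 members and 0% of the genes. At an unadjusted p under 0.05, 12 members were lower at 1 h, where 0.51% of all genes were, and 13 at 24 h, where 0.508% were. With the replicate number as a block, 38 members were called lower at 1 h, beside 2.07% of all genes, and 37 at 24 h, beside 2.1%. These calls rest on limma's trend and robust moderation, since with the block but without either 0 members were called at both times, beside 0% of all genes as lower. At an unadjusted p under 0.05 that fit had 6690 genes at 24 h and 6693 at 1 h, in either direction. With the block but without replicate 3, 27 members were called at 1 h (1.36% of all genes) and 29 at 24 h (1.53%). Leaving out replicate 1 at all times left 3 members called at 1 h (0.0257% of all genes) and 5 at 24 h (0.0487%), and leaving out replicate 2 left 9 (0.208%) and 6 (0.0949%). The rule used the same differences, so nothing is read from these counts.

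The groups were also compared without any pairing. In 13 members (31.0%) the 3 values at 1 h were all below the 3 values at 0 h, against 2.32% of the 28495 genes. In 13 members (31.0%) this held at 24 h, against 2.64% of the genes, and 12 members met it at both times. In the other members, values at 0 h in one replicate overlapped with cold values in another, since replicates started from different levels. The rule chose the members for low cold values against these same 0 h libraries, so nothing is read from these shares.

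Glyma09g32120 had the lowest mean difference at both times. It had 118, 79 and 125 normalized counts before the cold, 8, 8 and 28 after 1 h, and 6, 3 and 22 after 24 h. No cold value overlapped with the 0 h values, and replicate 3 kept the highest level at each time. The mean was 107 ± 24.8 at 0 h, 14.7 ± 11.5 at 1 h and 10.3 ± 10.2 at 24 h (SD, n = 3), a difference from 0 h of -3.00 ± 0.81 at 1 h and -3.62 ± 1.02 at 24 h on the log2 scale (SD over replicates, n = 3). The cold values of replicates 1 and 2 rest on about 2.6 to 3.8 reads each.

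Glyma03g06420 came second at 1 h, and its level differed between replicates. It had 750, 945 and 2760 normalized counts before the cold, 72, 77 and 836 after 1 h, and 84, 69 and 1086 after 24 h. Replicate 3 in the cold thus overlapped with replicates 1 and 2 at 0 h. The log2 difference by replicate was -3.36, -3.60 and -1.72 at 1 h and -3.14, -3.76 and -1.34 at 24 h. The gene was lowered less in replicate 3 than in the other 2 at both times.

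Glyma15g08270 came second at 24 h and had the widest span of the 6 differences among the members. Its values were 93, 69 and 139 normalized counts before the cold, 11, 27 and 61 after 1 h, and 5, 16 and 22 after 24 h. The groups did not overlap with 0 h at either cold time, and each replicate was lower at 24 h than at 1 h. The log2 difference was -1.82 ± 1.00 at 1 h and -2.87 ± 0.99 at 24 h (SD, n = 3). Replicate 1 at 24 h rests on about 3.2 reads.

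The most abundant member before the cold was Glyma20g32570, with 4598, 3868 and 3888 normalized counts. It had 1487, 1842 and 1835 after 1 h and 1044, 648 and 1722 after 24 h. Its replicates were close to each other at 0 h and at 1 h and spread out at 24 h, with replicate 3 highest. The mean was 4118 ± 416 at 0 h, 1721 ± 203 at 1 h and 1138 ± 543 at 24 h (SD, n = 3), which is 2.4-fold and 3.9-fold lower on the log2 scale used. With about 548 estimated reads or more in every library, counting noise was small for this gene.

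Glyma01g31300 had the next highest mean at 0 h, which rested on replicate 3. The values were 1204, 1238 and 8421 normalized counts before the cold, 237, 230 and 3079 after 1 h, and 292, 256 and 4465 after 24 h. Replicates 1 and 2 nearly coincided at each time, while replicate 3 lay above even their 0 h values in the cold. The log2 difference in replicates 1, 2 and 3 was -2.34, -2.42 and -1.45 at 1 h and -2.04, -2.27 and -0.92 at 24 h.

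**Figure D2:**
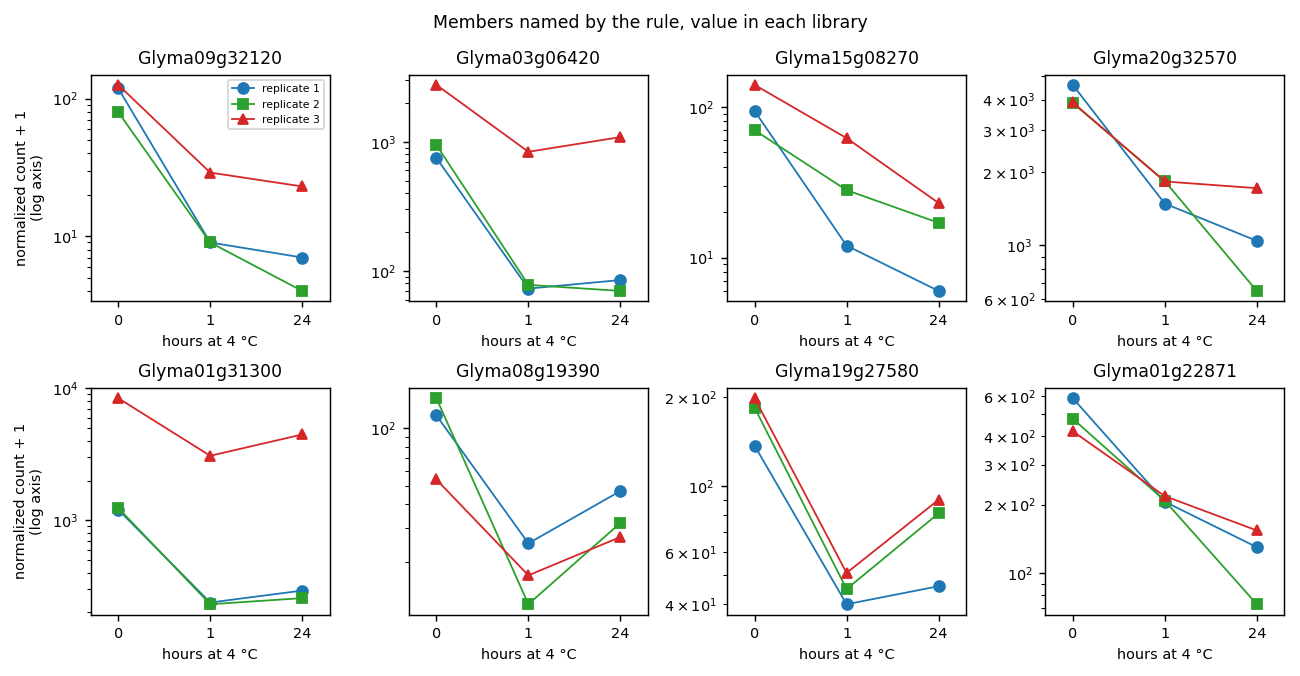
Normalized count plus 1 (log axis) in every library for the 8 members named for the size of their differences or their level, against hours at 4 °C, with 1 line per replicate number. Every line is lower at 1 h and 24 h than at 0 h, and replicate 3 is highest at all times in Glyma09g32120, Glyma03g06420, Glyma15g08270, Glyma01g31300 and Glyma19g27580.

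Levels before the cold covered a wide range. The mean at 0 h was 100 to 4118 normalized counts with a median of 402, while the median over the 28495 genes was 757. It was under 200 in 13 members (31.0%, against 13.8% of the 28495 genes), from 200 to under 1000 in 19, and at least 1000 in 10 (23.8%, against 41.4%). By the estimated depth, 24 members had at least 20 reads in every library and 10 had under 10 reads in at least 1 library. All 42 passed the minimum of 10 on the mean over the 9 libraries, and 12 had a 9-library mean under 100.

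Many members differed between replicate numbers before any cold. At 0 h, replicate 3 was over 2-fold below the average of the other 2 in 20 members (47.6%, against 18.3% of the 28495 genes) and over 2-fold above it in 8 (19.0%, against 23.2%). In 14 members it was within 2-fold. Between replicates 1 and 2, 6 members (14.3%) differed by more than 2-fold. The part of the replicate number in the choice of the members was not tested.

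The extremes were named after their values were seen. Glyma03g33340 had 30, 12 and 1184 normalized counts before the cold, 8, 5 and 565 after 1 h, and 5, 2 and 358 after 24 h. Glyma04g39510 had 5, 8 and 420 before the cold, 3, 0 and 165 after 1 h, and 2, 4 and 137 after 24 h. Both met the minimum mean of 100 through replicate 3, and the values of Glyma04g39510 in replicates 1 and 2 rest on about 0 to 3.4 reads. Glyma02g09110 showed the opposite pattern, with 320, 251 and 9 normalized counts before the cold, 19, 36 and 3 after 1 h, and 46, 22 and 2 after 24 h. Glyma19g32620 was likewise low in replicate 3, with 662, 521 and 28 before the cold, 243, 230 and 3 after 1 h, and 216, 173 and 8 after 24 h. In each of these 4 genes at least 1 replicate had fewer than 10 estimated reads in a library.

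**Figure D3:**
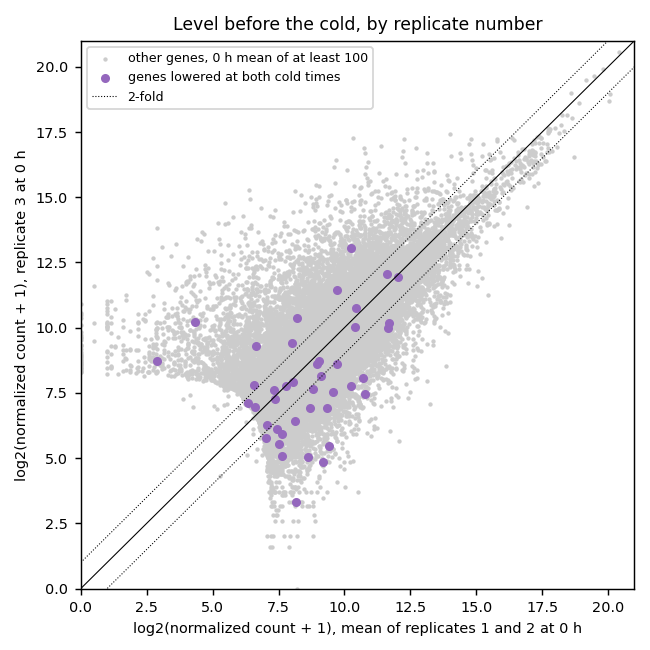
Level at 0 h in replicate 3 (y axis) against the mean of replicates 1 and 2 (x axis), both as log2(normalized count + 1), for the 42 members (purple) and the other genes with a 0 h mean of at least 100 (grey), with dotted lines at 2-fold. Of the members, 20 lie below the lower dotted line and 8 above the upper one.

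The lowering was also summarised by the level of replicate 3 at 0 h against the average of the other 2, with the 2-fold limits used above. The median log2 difference at 1 h was -1.25 in the 8 members higher in replicate 3, -1.07 in the 20 members lower there and -1.24 in the 14 within 2-fold. At 24 h the medians were -1.43, -1.06 and -1.08. By replicate number, the median member differed by -1.35, -1.10 and -1.07 in replicates 1, 2 and 3 at 1 h and by -1.16, -1.24 and -1.07 at 24 h. Replicate 3 was the least lowered of the 3 in 47.6% of members at 1 h and 52.4% at 24 h. Among 4301 other genes that were below 0 h in all 6 cold libraries, these shares were 34.0% and 31.7%. Members had to pass the threshold of the rule in all 6 differences, while these other genes only had to be below 0 h. Because the same differences chose the members, the medians and shares are a description, and nothing is read from the contrast with the other genes.

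The most even response was that of Glyma10g00800, named after its values were seen. It had 1137, 1298 and 216 normalized counts before the cold, 595, 692 and 100 after 1 h, and 592, 617 and 106 after 24 h. The log2 difference was -0.98 ± 0.11 at 1 h and -1.01 ± 0.07 at 24 h (SD, n = 3), although the 0 h values of replicates 2 and 3 were far apart.

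The rule was also applied to each pair of replicates, and the genes it found were read in the replicate left out. These lists are not the 42 members, though 39, 40 and 37 members were among them without replicates 1, 2 and 3. Those members are low in the replicate left out by the full rule, so the values are a description. When the rule was applied to replicates 2 and 3 alone it found 107 genes, and in replicate 1 these had a median log2 difference of -0.58 at 1 h and -0.59 at 24 h. In that replicate 79 of the 107 (73.8%) were lower at both times, against 42.1% of the 28442 genes that passed the 0 h minimum in replicates 2 and 3, which were not matched on level. Applied to replicates 1 and 3 the rule found 114 genes, and in replicate 2 their medians were -0.49 and -0.74, with 87 (76.3%) lower at both times against 38.7% of 28604 genes. Applied to replicates 1 and 2 it found 126 genes, and in replicate 3 their medians were -0.54 and -0.49, with 99 (78.6%) lower at both times against 42.9% of 27393 genes. Fewer met the threshold of -0.58 at both times in the replicate left out, namely 40 of the 107, 40 of the 114 and 40 of the 126. Of these, 39, 40 and 37 were members, which meet it by the full rule, so the counts largely restate membership. The shares lower at both times and the medians include the same members. Both differences in a replicate share its 0 h library, so being lower at both times is not a pair of separate observations. The median over all genes lay between -0.04 and -0.02 in each case.

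**Figure D4:**
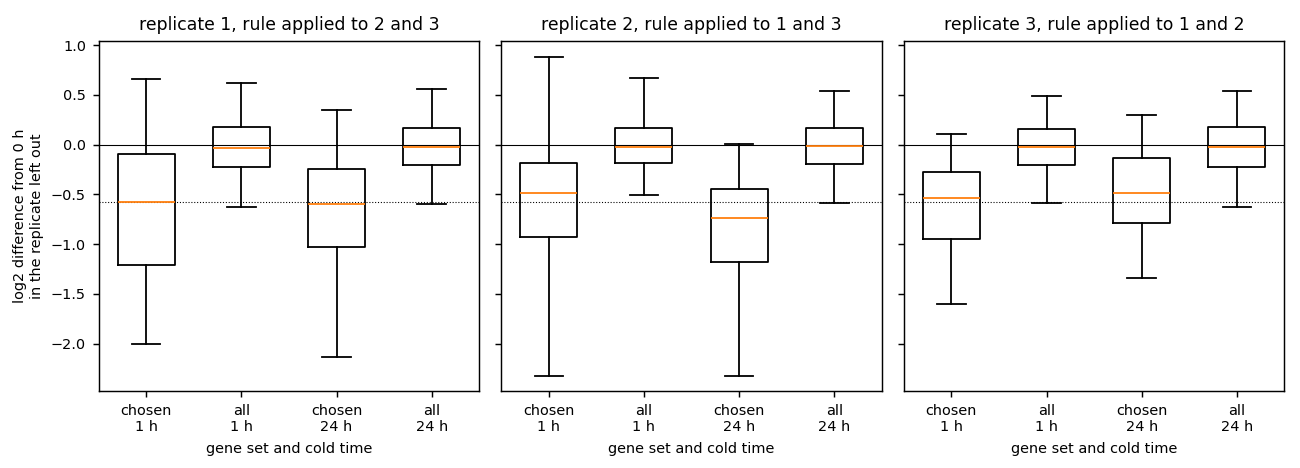
Log2 difference from 0 h in each replicate, for genes chosen by the rule in the other 2 replicates (chosen) and for all genes that passed the 0 h minimum there (all), not matched on level, at 1 h and 24 h. Boxes show the quartiles and median, whiskers the 5th to 95th percentiles, and the dotted line the threshold of -0.58. The chosen genes have medians of -0.49 to -0.74 and all genes, the chosen ones included, of -0.04 to -0.02. Among the chosen genes, 39, 40 and 37 are members (replicates 1, 2 and 3 left out), which are low there by the full rule.

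The rule does not fix which cold time was lower, so 24 h was compared with 1 h among genes that it requires to be low at both. A gene whose lowering had receded past the threshold by 24 h, or had not reached it at 1 h, could not be a member. The rule also treats both cold times alike, so the balance between them is a description of the members only. The comparison uses the same cold libraries in which the members were chosen for being low. The median log2 difference, 24 h minus 1 h, was -0.01 over the members and 0.00 over the 28495 genes. By mean, 22 members were lower at 24 h than at 1 h and 20 were higher. The difference was under 0.5 log2 units either way in 34 members, at least 0.5 lower in 5 and at least 0.5 higher in 3. It was under 0.5 in 81.0% of members, against 97.5% of the 28495 genes, and its quartiles were -0.22 and 0.19 in members, against -0.09 and 0.09 in those genes. The members thus spread more widely between the cold times. They also had a lower median level, as given above, whose part in this spread was not tested.

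In limma without the block, 0 members and 0% of the 38985 genes differed between 24 h and 1 h at an adjusted p under 0.05, and the same was true with the block. At an unadjusted p under 0.05 without the block, 1 member and 0.174% of all genes differed. With the block these were 8 members and 5.67% of all genes, with 4 members lower and 4 higher at 24 h. The moderated SE of a member's difference had a median of 0.74 without the block and 0.22 with it, so a difference of the size seen in most members was not detectable in these libraries. In 8 members all 3 replicates were lower at 24 h, as in 13.2% of the 28495 genes, and in 8 all 3 were higher, as in 15.7%. In the other 26 the replicates went in different directions.

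Glyma08g19390 and Glyma19g27580 had the highest difference between the cold times. Glyma08g19390 had 46, 31 and 26 normalized counts after 24 h and 24, 11 and 16 after 1 h, beside 116, 143 and 53 before the cold. It was higher at 24 h in 3 of 3 replicates and its 24 h values lay above all its 1 h values. The difference was 1.00 ± 0.49 without the block and 1.00 ± 0.38 with it (moderated SE, n = 3, limma adjusted p = 1 and 0.858), and 0.62 with the block but without replicate 2 at 1 h. Glyma19g27580 had 45, 80 and 89 after 24 h and 39, 44 and 50 after 1 h, beside 136, 183 and 197 before the cold, a difference of 0.62 ± 0.34 (moderated SE) without the block. It was higher at 24 h in 3 of 3 replicates, with limma adjusted p = 1 without the block and 0.842 with it.

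Glyma15g08270, described above, and Glyma01g22871 had the lowest. Glyma15g08270 differed by -1.05 ± 0.74 without the block (moderated SE, n = 3, limma adjusted p = 1, and 0.867 with the block), and was lower at 24 h in 3 of 3 replicates. Its size rested on single libraries, with -1.65 without replicate 1 at 1 h, -0.46 without replicate 3 at 1 h and -0.48 without replicate 1 at 24 h. Glyma01g22871 had 129, 72 and 153 normalized counts after 24 h and 205, 207 and 217 after 1 h, beside 586, 476 and 419 before the cold. The 3 groups did not overlap. Its difference was -0.89 ± 0.31 without the block and -0.89 ± 0.22 with it (moderated SE, n = 3, limma adjusted p = 1 and 0.797), and it was lower at 24 h in 3 of 3 replicates. Without replicate 2 at 24 h it was -0.57. Among the members the lowest p with the block was that of Glyma10g31610, named after its value was seen. This gene had 679, 555 and 933 normalized counts after 24 h and 512, 464 and 612 after 1 h, beside 1494, 1259 and 1714 before the cold, a difference of 0.42 ± 0.09 (moderated SE, limma adjusted p = 0.778 with the block and 1 without).

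**Figure D5:**
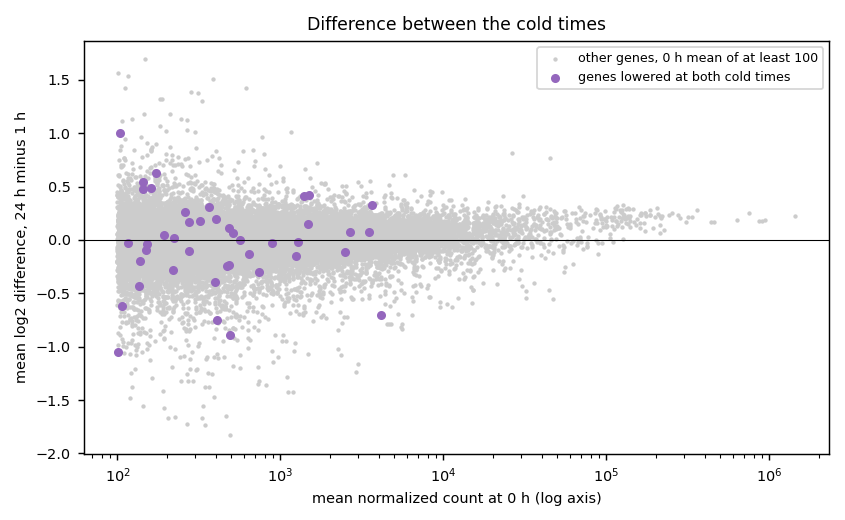
Mean log2 difference of 24 h minus 1 h (y axis) against mean normalized count at 0 h (log x axis), for the 42 members (purple) and the other genes with a 0 h mean of at least 100 (grey). Of the members 34 lie between -0.5 and 0.5, and the outermost are Glyma08g19390 at 1.00 and Glyma15g08270 at -1.05.

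The threshold divides genes with nearly equal values. Just inside it were Glyma04g39510 and Glyma20g33890, whose largest difference was -0.585, a value that 3 members shared. Glyma20g33890 had 120, 245 and 68 normalized counts before the cold, 56, 65 and 38 after 1 h, and 74, 113 and 45 after 24 h. Just outside were Glyma19g30460, whose largest difference was -0.579, and Glyma20g28000, at -0.578. Glyma19g30460 had 1235, 1168 and 226 before the cold, 690, 440 and 107 after 1 h, and 495, 548 and 151 after 24 h. Glyma20g28000 had 96, 143 and 159 before the cold, 60, 67 and 65 after 1 h, and 64, 85 and 79 after 24 h. Of the 28495 genes, 98 met the threshold in 5 of the 6 differences, and the one missed was most often that of replicate 2 at 1 h, in 31 genes. A further 245 met it in 4 of 6, and 4343 genes (15.2%) were below 0 h in all 6 cold libraries by any amount.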

How the data were processed

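Libraries were prepared from leaf RNA with a TruSeq kit, per the labels' protocols, and the sample titles gave each library's group and replicate number. The authors deposited a score for every gene in every library, namely a read count they had normalized and rounded to whole numbers. Cutadapt 1.2.1 and DESeq 1.12 are named in the submitters' processing notes. The sources used here do not give the aligner, read counter, build, annotation or treatment of reads from near-identical genes, so values of duplicated genes are uncertain. The members and the tests were chosen with earlier results of these data known.

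Values were analysed as log2(score + 1), which understates the fold change of low genes. The 38985 of 49777 genes averaging 10 or more were tested with limma 3.58.1 in R 4.3.3, two-sided, using trend and robust moderation and all 9 libraries in the same fit. P-values were adjusted over all genes tested (Benjamini-Hochberg, threshold 0.05). Libraries with the same replicate number deviated together (correlations across genes of 0.69 to 0.95, and 9 of 9 correlated best with their own number). This pairing comes from the data, not from the labels.

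The members named were the 2 with the lowest mean difference at 1 h, the 2 lowest at 24 h, the 2 with the highest mean at 0 h, the 2 highest and 2 lowest for 24 h minus 1 h, and the 2 genes on each side of the threshold, with ties taken by 0 h mean. Others are said to be named after their values were seen. Planned gene lists by words in gene names could not be used, since 0 of 49777 identifiers matched the RefSeq table of 59048 genes (assembly Glycine_max_v4.0). The worth of 1 read was estimated from the spacing of scores of 1 to 40, and whole reads were not recovered. Software was Python 3.11.15 with numpy 2.4.6 and pandas 2.3.3, and matplotlib 3.10.9 for figures. Alternatives were pseudocounts, filters, scalings, the block, and leaving out libraries.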

Additional observations from a re-analysis of the deposited data

How the results depend on the processing

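Depth limits the members of low level, and 10 of 42 had under 10 estimated reads in some library. The number of members was 42 by the rule, 138 with a threshold of -0.4 and 10 with -1, and 6 when every cold library was set against the lowest 0 h library without pairing. Without replicate 1, 2 or 3 it was 107 to 126, and 39, 40 and 37 of the 42 were among them. Pseudocounts, the 0 h minimum and equal library totals gave 29 to 53.

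Without the block 0 genes were called in each comparison in all alternatives, except that leaving out replicate 3 gave 38 genes at 1 h and 129 at 24 h, and leaving out the 24 h library of replicate 3 gave 2 at 1 h. The replicate block gave 1742 genes at 1 h against 0 h and 1993 at 24 h against 0 h, and 0 between 24 h and 1 h. With the block, pseudocounts of 0.5 and 5 gave 1679 and 1884 at 1 h and 1960 and 2119 at 24 h, no filter 1449 and 1655, a mean of at least 100 gave 1912 and 2166, equal totals 1880 and 2064, quantile normalization 1668 and 2019, and fits of only 2 groups 734 and 1185. Without trend and robust moderation the block gave 0 and 1. With the block, equal totals gave 1446 higher and 434 lower genes at 1 h, against 934 and 808 as deposited, and 918 higher and 1146 lower at 24 h, against 1173 and 820. Leaving out the 0 h libraries of replicates 1, 2 and 3 in turn with the block gave 258, 653 and 1404 genes at 1 h and 435, 864 and 1702 at 24 h. Leaving out those of 1 h gave 73, 1092 and 285 at 1 h, and leaving out those of 24 h gave 234, 225 and 1549 at 24 h. Without replicate number 1, 2 or 3 at all times the block gave 18, 238 and 1028 genes at 1 h and 42, 93 and 1569 at 24 h. Leaving out those of 24 h gave 890, 1158 and 2178 at 1 h, and those of 1 h 1765, 1964 and 1310 at 24 h. With or without the block, such fits ran from 0 to 2178 at 1 h, 0 to 1964 at 24 h and 0 to 3 between the cold times. The causes were not tested.

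For 24 h minus 1 h, the median over the members ranged from -0.11 (equal totals, which put the median of the 28495 genes at -0.10) to 0.12 (without replicate 2). No named member passed in any alternative, with adjusted p from 0.107 to 1. Leaving out a library, values reached 1.30 for Glyma03g06420, 1.57 for Glyma01g31300 and 2.67 for Glyma04g39510, each without replicate 3 at 1 h. The sign turned for 3 of the 10 named members. For Glyma03g06420 the values were -0.46, -0.41 and -1.13 without replicates 1 and 2 at 1 h and replicate 3 at 24 h, and -0.26 without the last with the block. For Glyma01g31300 they were -0.28, -0.30 and -1.01 in the same order. For Glyma04g39510 they were -0.02, -1.02 and -1.17, then -0.34 without replicate 2 with and without the block, and -0.26 without replicate 2 at 1 h with the block.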

Other observations

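The identifiers carry a chromosome number and a running number. The 42 members carried 16 different chromosome numbers, with 6 members on 01, 5 each on 04 and 20, and 4 each on 02 and 06. The share of the 28495 genes on each number is not given here, so no concentration is read from these counts. No member was the next identifier to another, and the closest pair, Glyma06g18710 and Glyma06g18890, was 180 apart in running number. Of the 84 identifiers next to a member, 54 had a 0 h mean of at least 100 normalized counts. Their median log2 difference from 0 h was -0.04 at 1 h and -0.11 at 24 h. In 17 of the 54 (31.5%) all 6 differences were below 0, against 15.2% of the 28495 genes, and this share was not tested.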
